A study of Mus musculus with 7 samples.

Results

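Mouse liver holds a short series of enzymes that lengthen fatty acids and place double bonds in them, and 10 of their genes are described here: the desaturases Scd1, Scd2, Fads1, Fads2 and Fads3, and the elongases Elovl1, Elovl2, Elovl3, Elovl5 and Elovl6. They were taken by exact gene symbol in GEO's platform annotation, by a rule that uses no measured value but was written with earlier results of these data known, from 16468 named genes (22218 features with the unnamed probes), and each was read by 1 probe. Liver RNA came from 3 mice carrying a Zfp90 transgene (1 female, 2 males) and 4 wild-type littermates (1 female, 3 males). Zfp90 is a zinc finger protein. Each animal's RNA was hybridised against 1 pool of RNA from the livers of 4 wild-type mice of both sexes. The labels list the pool first and Cy3 as the first dye, and state that dyes were swapped without saying how the swaps were combined. Values are ratios to the pool, so a log2 ratio of 0 means the level of the pool. The promoter that drives the transgene, the strain, the age, the diet and the feeding state of the animals are not given in the sources used here. The comparison asks which liver transcripts differ when Zfp90 is carried as a transgene.

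Palmitate, the saturated chain that fatty acid synthase releases, is the starting point for some of these enzymes, and essential fatty acids of the diet are that for others. Elongases catalyse the first, rate-limiting condensation of a cycle in the endoplasmic reticulum that adds a unit of carbon from malonyl-CoA, and desaturases take electrons from cytochrome b5 to insert a double bond. Elovl6 and Scd1 act in sequence on the chains made in the liver and yield oleate, the main acyl chain of stored triglyceride, whereas Fads1, Fads2, Elovl2 and Elovl5 turn the essential fatty acids of the diet into arachidonate and docosahexaenoate. In liver, Scd1, Elovl6, Fads1 and Fads2 are well-known targets of the lipogenic factor SREBP-1c, and Elovl3 is a gene expressed more in males than in females.

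Levels are given as log2 of animal over pool, and differences are transgenic minus wild type, from limma with genotype and sex in the model and p-values adjusted by Benjamini-Hochberg over all 22218 features (threshold 0.05). The Y-linked Kdm5d read -2.54 and -3.22 in the females and 0.14 to 0.66 in the males, so positive values are higher in the animal than in the pool. Of the 21 array pairs 3 correlated below -0.3 over all probes: -0.497 between wild-type male 4 and the transgenic female, and -0.363 and -0.307 between the wild-type female and wild-type males 3 and 2. Were the direction the other way round, all differences would swap sign with the same p. Zfp90 itself read 0.34, 0.58 and 0.45 in the transgenic female and transgenic males 1 and 2, and -0.15, -0.29 and -0.11 in wild-type males 2, 3 and 4. The array labelled as the wild-type female gave 0.37, within the range of the transgenic animals. In Zfp90 the library goes against its label. It is the only array labelled wild-type female, so a sex difference within wild type and a wrong label cannot be told apart here. Whether the label is wrong was not tested. Each member's genotype difference is also given without this array. In the model with sex, leaving out either female gives the same difference as fitting the 5 males alone. The number of arrays limits the precision of every value.

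The data showed 2 members apart from the rest. Scd1 and Elovl6, the pair that makes monounsaturated chains from palmitate, lay higher in each of the 3 transgenic animals than in any of the 4 wild-type animals. That was 2 of 10 members, against 3.17% of all features with transgenic above all wild type. No member lay below all wild type (2.84% of all features), and 6.01% of features had no overlap in either direction. Neither passed the threshold over all features: limma called 0 of 10 members and 0% of all features. At an unadjusted p under 0.05 (6.91% of all features) stood Scd1 and Elovl6 among the higher (3.82% of all features) and Elovl2 among the lower (3.1%). Of the 10 members 6 had a positive and 4 a negative difference, and their median was 0.12, against -0.01 over all features, of which 48.2% were positive.

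**Figure D1:**
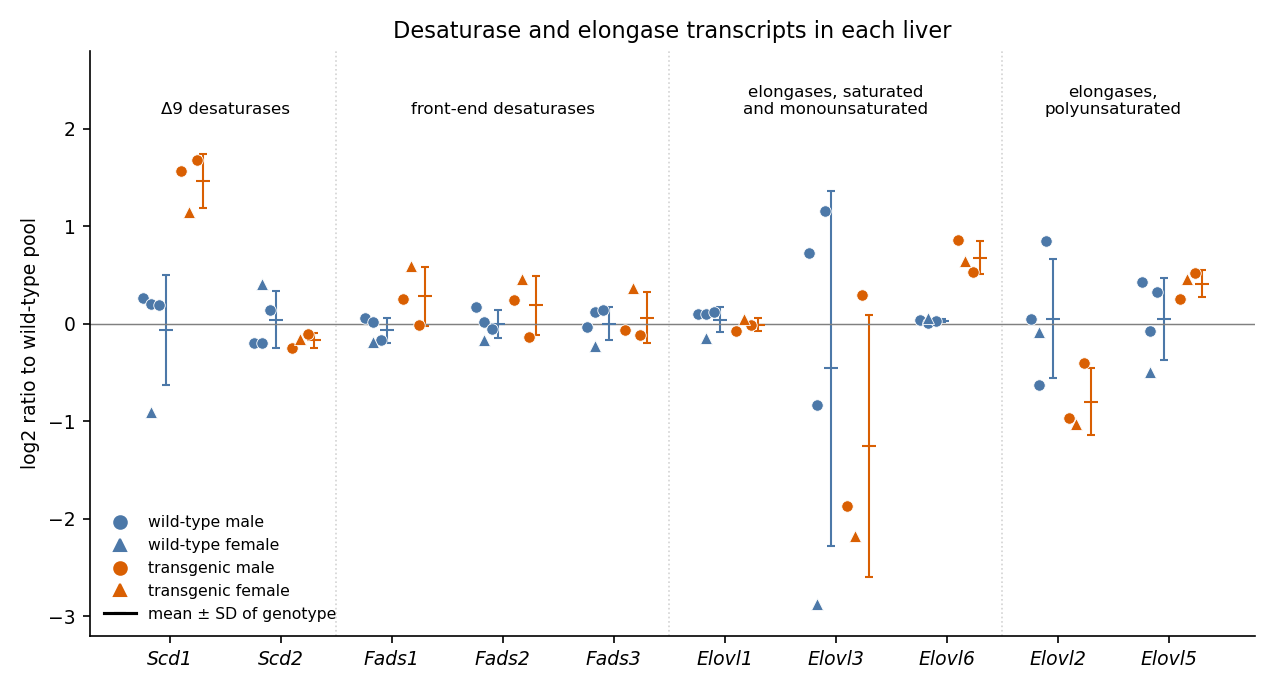
Log2 ratio to the wild-type pool (vertical axis) of each of the 10 members in 7 livers, with circles for males, triangles for females, blue for wild type and orange for transgenic, and bars for the mean ± SD of each genotype. Scd1 and Elovl6 are the members whose orange points all lie above the blue ones, and Elovl3 spreads from -2.87 to 1.15.

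Scd1, the main liver enzyme that turns stearate into oleate, read 1.15 in the transgenic female, 1.57 in transgenic male 1 and 1.68 in transgenic male 2. In wild-type males 2, 3 and 4 it read 0.26, 0.21 and 0.19, with -0.91 on the array labelled wild-type female. All transgenic values were high, the array labelled wild-type female was the lowest of the 7, and the genotypes did not overlap. The difference was 1.59 ± 0.14 SE (3.02-fold, 95% interval 1.27 to 1.91), with the smallest p of all features and an adjusted p of 0.0947. In the 5 males alone, and so without the library in doubt, it was 1.40 ± 0.10 SE (2.64-fold) and passed at adjusted p = 0.026, as did 0.0315% of all features and no other member. At an unadjusted p under 0.05 in the males stood Scd1 and Elovl6 (6.96% of all features). Between the females it was 2.06 (4.16-fold), a value with no replicate.

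Scd2, the desaturase that predominates in brain and in the liver of newborn mice, overlapped between the genotypes. It read -0.15, -0.25 and -0.10 in the transgenic female and transgenic males 1 and 2, against -0.20, -0.19 and 0.14 in wild-type males 2, 3 and 4 with 0.41 on the array labelled wild-type female. The array labelled wild-type female was the highest, and the difference of -0.23 ± 0.14 SE (95% interval -0.56 to 0.09) had an adjusted p of 0.78. Without that array it was -0.09 ± 0.14 SE. The 4 genes Scd3, Scd2, Scd4 and Scd1 stand side by side, with no other protein-coding gene between them in the order of assembly GRCm38.p6. Of Scd1's other neighbours in that row, Scd3 differed by -0.19 ± 0.15 SE and Scd4 by -0.02 ± 0.10 SE, with adjusted p of 0.838 and 0.995. Scd1 had a positive difference and the other 3 genes negative ones, and none of the 4 passed over all 7 animals. The 4 coding sequences are alike, and the sources used here do not say whether each probe reads its own gene alone.

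The front-end desaturases, which place double bonds between an existing one and the carboxyl end, also lie side by side, in the order Fads3, Fads2, Fads1. Fads1, the delta-5 desaturase of arachidonate synthesis, read 0.59, 0.25 and -0.01 in the transgenic female and transgenic males 1 and 2, against 0.06, 0.02 and -0.17 in wild-type males 2, 3 and 4 with -0.19 on the array labelled wild-type female. Transgenic male 2 lay among the wild-type animals, and the difference was 0.34 ± 0.15 SE (1.26-fold, 95% interval -0.01 to 0.68, adjusted p = 0.725). Fads2, the delta-6 desaturase that opens the pathway, read 0.46, 0.24 and -0.14 in the same transgenic animals. Its wild-type values were 0.18, 0.02 and -0.05 in the males and -0.16 in the female, and the difference was 0.19 ± 0.16 SE (adjusted p = 0.86). In both genes the transgenic female was highest, transgenic male 1 was next and transgenic male 2 overlapped with wild type.

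Fads3, whose activity in liver is the least settled of the 3, read 0.36 in the transgenic female and -0.06 and -0.12 in the transgenic males. Wild-type males 2, 3 and 4 read -0.03, 0.12 and 0.14, with -0.23 on the array labelled wild-type female. Both transgenic males lay below the 3 wild-type males while the transgenic female lay above every other animal, and the difference over all animals was 0.06 ± 0.15 SE (adjusted p = 0.984). Without the array labelled wild-type female, Fads1 differed by 0.15 ± 0.13 SE and Fads2 by 0.00 ± 0.15 SE, and Fads3 changed sign to -0.16 ± 0.11 SE. The females alone differed by 0.78 in Fads1 and by 0.62 in Fads2.

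Among the elongases of saturated and monounsaturated chains, Elovl6, which lengthens palmitate to stearate, read 0.65 in the transgenic female, 0.86 in transgenic male 1 and 0.53 in transgenic male 2. The 4 wild-type animals read 0.04, 0.01 and 0.03 in males 2, 3 and 4 with 0.05 on the array labelled wild-type female. The genotypes did not overlap, and the library in doubt lay with the other wild-type animals in this gene. The wild-type SD of 0.02 was exceeded by almost all features: only 0.275% had a smaller one, and the median over all features was 0.16. The difference was 0.65 ± 0.10 SE (1.57-fold, 95% interval 0.40 to 0.89), the 14th smallest p of all features, with an adjusted p of 0.475. It was 0.67 ± 0.13 SE in the 5 males alone (adjusted p = 0.268) and 0.59 between the females, so males and females gave near values in Elovl6.

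Elovl3, which makes very long saturated and monounsaturated chains, varied most. It read -2.18, -1.87 and 0.29 in the transgenic female and transgenic males 1 and 2, and 0.72, -0.83 and 1.15 in wild-type males 2, 3 and 4, with -2.87 on the array labelled wild-type female. Its range of 4.03 over the 7 arrays was exceeded in 0.18% of all features. Transgenic male 1 read lower than every other male and close to the transgenic female. The genotype difference was -0.60 ± 0.67 SE (95% interval -2.18 to 0.98, adjusted p = 0.913), turned to 0.24 without transgenic male 1 and was -1.14 ± 0.77 SE in the 5 males alone.

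Elovl1, an elongase of saturated chains found in most tissues, stood at the other end, with a range of 0.26 over the arrays, exceeded in 86.1% of features. It read 0.05, -0.08 and -0.01 in the transgenic female and transgenic males 1 and 2, and 0.10, 0.10 and 0.12 in the wild-type males, with -0.15 on the array labelled wild-type female. The difference was -0.05 ± 0.10 SE (95% interval -0.28 to 0.19, adjusted p = 0.976), which turned to 0.01 without transgenic male 1. Both transgenic males lay below the 3 wild-type males, by a difference of -0.15 ± 0.10 SE. In the males alone 2 of 10 members lay above (Scd1, Elovl6) and 2 below (Fads3, Elovl1) with no overlap, against 11.2% and 11.4% of all features.

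The 2 elongases of polyunsaturated chains differed in sign. Elovl2, which makes the longest precursors of docosahexaenoate, read -1.02, -0.97 and -0.40 in the transgenic female and transgenic males 1 and 2, and 0.05, -0.63 and 0.85 in wild-type males 2, 3 and 4, with -0.09 on the array labelled wild-type female. The overlap came from wild-type male 3, which read below transgenic male 2. The difference was -0.83 ± 0.33 SE (1.77-fold lower, 95% interval -1.59 to -0.06), with an adjusted p of 0.72. It was -0.78 ± 0.41 SE in the 5 males alone and -0.94 between the females.

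Elovl5, which lengthens the earlier products of Fads2, read 0.45, 0.26 and 0.52 in the transgenic animals in the same order. Wild-type males 2, 3 and 4 read 0.43, -0.08 and 0.33, with -0.49 on the array labelled wild-type female. The genotypes overlapped, with 2 of the wild-type males above transgenic male 1, and the difference was 0.40 ± 0.19 SE (1.32-fold, adjusted p = 0.742). Without the array labelled wild-type female it was 0.17 ± 0.18 SE.

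**Figure D2:**
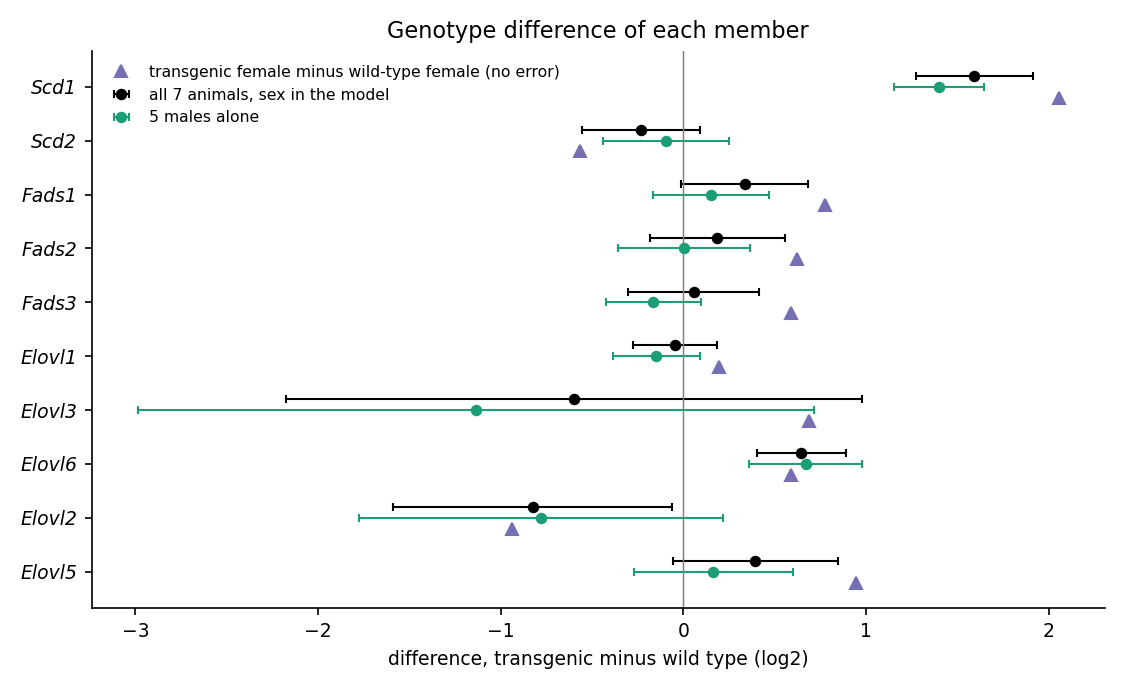
Difference between genotypes on the log2 scale (horizontal axis) for each member, with 95% intervals from limma over all 7 animals (black) and in the 5 males (green), and the single difference between the females (purple triangles, no error). Scd1 and Elovl6 have intervals above 0 in both fits, and in 7 of 10 members, all but Scd2, Elovl6 and Elovl2, the triangle lies to the right of both points.

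Start-site sequences of 3 elongases are shown because Elovl6, Elovl5 and Elovl2 had unlike differences (0.65, 0.40 and -0.83). Each is the RefSeq window of assembly GRCm38.p6 from 250 bases before to 50 bases after the start of the transcript, 5′ to 3′ on the gene's strand, and such windows were matched for 6 of the 10 members (8 windows). Capitals mark matches on either strand to CCAAT (the box bound by NF-Y), CACGTG (an E-box), GGGCGG (a GC box) and TCACNCCAC (a sterol regulatory element). In the 32851 windows of the table these were found in 37.4%, 7.15%, 35.7% and 1.24%. The windows are chr3:129532136-129532435 (+) for Elovl6, chr9:77917115-77917414 (+) for Elovl5 and chr13:41220354-41220653 (-) for Elovl2.
Elovl6: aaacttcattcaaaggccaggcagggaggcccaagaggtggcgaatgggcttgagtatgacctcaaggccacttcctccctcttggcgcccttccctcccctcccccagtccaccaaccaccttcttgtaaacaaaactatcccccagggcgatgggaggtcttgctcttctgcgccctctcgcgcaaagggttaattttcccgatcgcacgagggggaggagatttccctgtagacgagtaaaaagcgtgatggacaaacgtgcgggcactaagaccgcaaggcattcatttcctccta
Elovl5: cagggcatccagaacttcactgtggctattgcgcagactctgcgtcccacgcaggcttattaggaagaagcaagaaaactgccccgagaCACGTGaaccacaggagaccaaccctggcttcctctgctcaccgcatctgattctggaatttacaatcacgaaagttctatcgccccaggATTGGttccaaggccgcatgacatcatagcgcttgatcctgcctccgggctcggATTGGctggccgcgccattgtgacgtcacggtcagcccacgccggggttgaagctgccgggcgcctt
Elovl2: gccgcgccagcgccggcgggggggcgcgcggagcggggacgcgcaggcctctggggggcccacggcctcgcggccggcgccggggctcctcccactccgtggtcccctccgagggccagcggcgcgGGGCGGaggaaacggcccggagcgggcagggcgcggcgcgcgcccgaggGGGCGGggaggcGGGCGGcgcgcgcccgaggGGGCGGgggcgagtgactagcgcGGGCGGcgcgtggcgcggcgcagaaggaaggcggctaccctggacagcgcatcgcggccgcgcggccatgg

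None of these letters occurred in the Elovl6 window, which held 55.7% G and C. The Elovl5 window held CACGTG 161 bases before the start and CCAAT, read on the other strand, 71 and 17 bases before it. The Elovl2 window shown, with 84.7% G and C, held 5 GC boxes, 124, 75, 63, 44 and 21 bases before the start. Another Elovl2 window, chr13:41220113-41220412 (-) with 76.7% G and C, held none of these letters. The median over all windows was 52.7% G and C. The sterol element was in 0 of the 8 member windows. A match is a string of letters and no measured binding site, and the arrays hold no readout of the promoters.

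The genotype difference went the same way in males and females in 7 members and opposite ways in 3 (Fads3, Elovl1 and Elovl3), against 50% of all features with opposite signs. Of the 10 members 8 were higher in the transgenic than in the wild-type female (52.2% of all features), with a median of 0.61, and 5 were higher in the transgenic males (44.6% of all features), with a median of -0.05. In the interaction of genotype and sex, limma called 0 members and 0.072% of all features, so no member's difference was shown to depend on sex. The largest interaction relative to its error was that of Fads3 (0.75 ± 0.20 SE, adjusted p = 0.391), followed by Scd1 (0.65 ± 0.19 SE, adjusted p = 0.426), and with Fads1 these were the 3 members at an unadjusted p under 0.05 (8.42% of all features). On the array labelled wild-type female 7 of 10 members read below all 3 wild-type males, as did 26.2% of all features, and this 1 animal enters every comparison of the females.

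**Figure D3:**
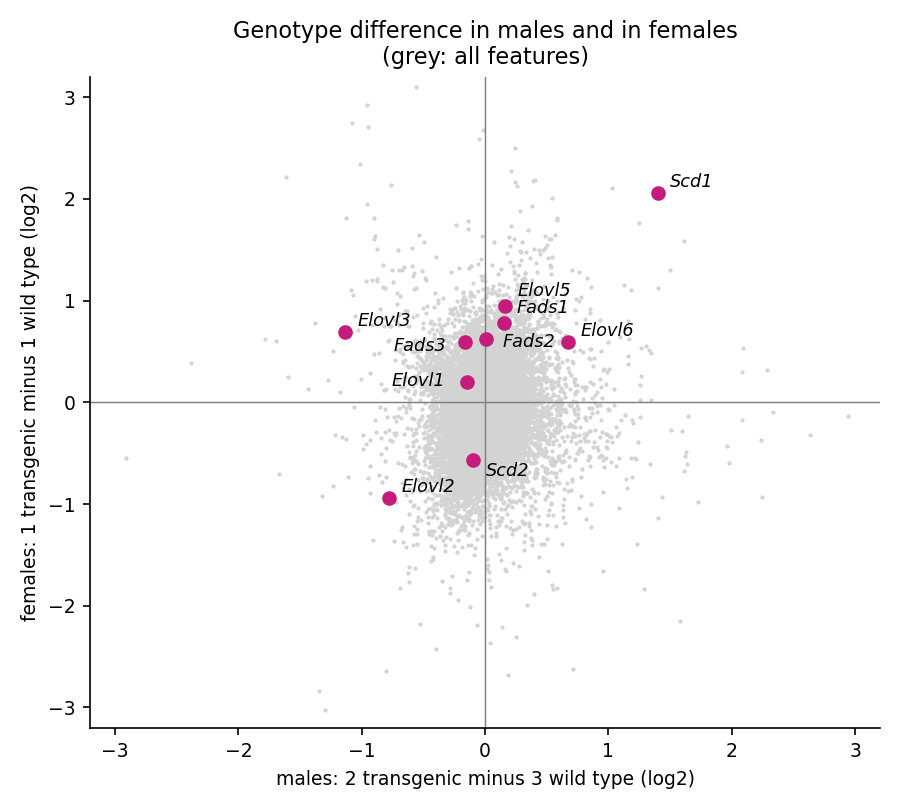
Difference between 2 transgenic and 3 wild-type males (horizontal axis) against the difference between the 1 transgenic and the 1 wild-type female (vertical axis), both on the log2 scale, with the members in magenta and all features in grey (14 features lie outside the limits of 3.2). Scd1 and Elovl6 lie to the upper right, Elovl2 and Scd2 to the lower left, and Elovl3, Fads3 and Elovl1 to the upper left.

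Between the sexes, limma called 0 members and 0.351% of all features. Elovl3 was the member with both females below all 5 males (6.83% of all features; 12.9% had no overlap in either direction), at a mean of -2.53 against -0.11. No member had both females above all males (6.04% of all features). Its fitted difference was -2.36 ± 0.74 SE, 5.14-fold lower in females, with an adjusted p of 0.363. In wild-type animals alone the female read 3.22 below the mean of the males, and in transgenic animals the female at -2.18 stood beside males at -1.87 and 0.29. Scd1 was lower in females by -0.82 ± 0.15 SE (adjusted p = 0.104). It differed with the female left out: without the transgenic female it was -1.13 at an adjusted p of 0.0178, with the array in doubt as the 1 female, assumed to vary like the males, and without the array in doubt it was -0.47 and did not pass (adjusted p = 0.449). Elovl3 and Scd1 were the 2 members at an unadjusted p under 0.05 for sex (9.23% of all features).

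The other genes of the pathway were read from lists of 68 genes outside the members, of which 63 were measured. In these lists 40 had a positive and 23 a negative difference, against 34 and 29 in the 5 males alone. The median was 0.04, against 0.009 in the males, and 0 genes passed the threshold. Genotypes did not overlap in 3 of the 63 genes, each higher in transgenic animals, and all 3 belonged to the synthesis of palmitate. Over all features 3.17% lay above all wild type, 2.84% lay below and 6.01% did not overlap in either direction. The lists were chosen with earlier results of these data known. Among the pathway lists outside the members that list had the highest median, 0.33, with 7 of 8 genes positive. In the 5 males alone its median was 0.30, also with 7 of 8 positive. Acly, which makes cytosolic acetyl-CoA from citrate, read 1.26, 1.26 and 1.21 in the transgenic female and males 1 and 2, and -0.42 to 0.14 in wild type. Acss2, which makes it from acetate, read 0.70 to 1.17 against -0.23 to 0.40, and the malic enzyme Me1, a source of NADPH, 0.31 to 0.57 against -0.19 to 0.32. Their differences were 1.32 ± 0.13, 0.86 ± 0.17 and 0.41 ± 0.13 SE, with adjusted p of 0.0947, 0.508 and 0.677. Fasn, the synthase that releases palmitate, was the third gene without overlap, at 0.69 to 1.06 against -0.78 to 0.48, a difference of 0.80 ± 0.28 SE (adjusted p = 0.715).

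The enzymes that work beside the members in the same membrane came next in the lists. Elongation needs a reductase, a dehydratase and a second reductase after the condensing enzyme, and of 6 such genes 4 were positive, with a median of 0.15. In the 5 males alone 3 of the 6 were positive, with a median of 0.01. The dehydratases Hacd3, Hacd4 and Hacd2 differed by -0.29 ± 0.12, 0.52 ± 0.22 and 0.28 ± 0.14 SE, so members of 1 family lay on both sides of 0. Of 6 genes that bring electrons to desaturases 5 were positive, with a median of 0.12, led by Cyb5b (0.42 ± 0.19 SE), Cyb5r3 (0.36 ± 0.16 SE) and Cyb5a (0.18 ± 0.14 SE). In the 5 males alone 4 of these 6 were positive, with a median of 0.10. Cyb5b was lowest, at -0.62, on the array labelled wild-type female. The 7 other desaturases and elongases had a median of -0.02, with 2 positive (-0.10 and 0 in the 5 males alone). Among them Degs1, a desaturase of sphingolipid synthesis, differed by -0.41 ± 0.15 SE, and Degs2 by -0.11 ± 0.13 SE. None of the genes named here passed, with adjusted p of 0.718 or more.

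Upstream and downstream of the members the lists were also mixed. Acyl-CoA synthetases had a median of 0.08 over 4 genes, with Acsl5 at 0.48 ± 0.15, Acsl4 at 0.20 ± 0.12 and Acsl3 at -0.16 ± 0.10 SE. Enzymes that use the finished chains had 4 of 10 positive and a median of -0.07. The acyltransferases Dgat2 and Dgat1, which complete triglyceride, differed by -0.27 ± 0.13 and -0.34 ± 0.19 SE, and the phosphatase Lpin2 by -0.20 ± 0.18 SE. In the peroxisomal list, whose enzymes trim the precursor of docosahexaenoate, the median was 0.01 over 5 genes, with the thiolase Scp2 at -0.36 ± 0.12, the transporter Abcd2 at 0.43 ± 0.24 and the thiolase Acaa1a at -0.15 ± 0.10 SE. In the 5 males alone the median of that list was -0.17, with 1 of 5 positive. Of 17 genes that regulate desaturase and elongase transcription, directly or through control of SREBP, 13 were positive, with a median of 0.06. Srebf1, whose product SREBP-1c drives several members, read -0.55, 0.46 and 0.66 in the transgenic female and males 1 and 2, against -0.51 to 0.44 in wild type, a difference of 0.15 ± 0.31 SE. Thrsp, a gene regulated with lipogenesis, read -0.30, 0.86 and 1.20 against -0.67 to 0.44 (0.69 ± 0.32 SE), and Nfya and Hnf4a differed by 0.29 ± 0.15 and 0.24 ± 0.15 SE. In Srebf1 and Thrsp the genotypes overlapped, and the transgenic female was the lowest transgenic animal. Adjusted p for the genes of this paragraph was 0.699 or more.

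**Figure D4:**
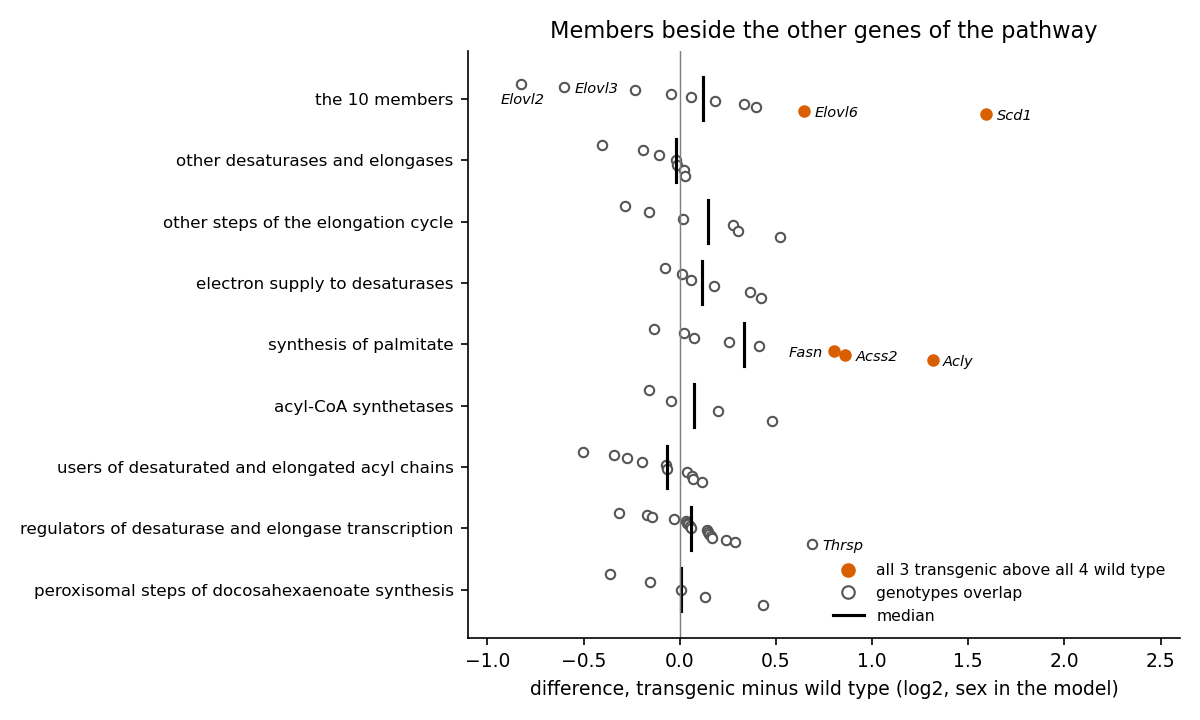
Difference between genotypes on the log2 scale from the model with sex (horizontal axis) for the 10 members and for the 63 measured genes of the other lists, 1 point a gene, filled orange where the lowest of 3 transgenic animals exceeded the highest of 4 wild-type animals, with the median of each list as a bar. The 5 filled points are Scd1, Elovl6, Acly, Acss2 and Fasn.

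Markers of other cell types were read on the same arrays, where fewer cells of a type and less RNA per cell cannot be told apart. Adipocyte markers, from cells that also express Scd1, were positive in 4 of 8 genes, with means between -0.04 and 0.20 in transgenic livers and between -0.08 and 0.11 in wild-type livers. Their part in the result was not tested. Kupffer cell and macrophage markers were positive in 7 of 8 genes (median 0.37), with means of 0.30 to 0.56 in transgenic animals, -0.70 to -0.27 in wild-type males with 0.81 on the array labelled wild-type female. That array had the highest macrophage mean of the 7 and the lowest Scd1. The part of these cells in the members' differences was not tested. Of the hepatocyte markers 5 of 8 were positive, with means between -0.11 and 0.07 in transgenic livers and between -0.10 and 0.07 in wild-type livers. Markers of lymphocytes, stellate cells, endothelium and bile duct had medians of -0.0012, 0.03, -0.02 and 0.09. Red blood cell genes were positive in 4 of 4, with a median of 0.22. In the 5 males alone 2 of these 4 were positive, with a median of 0.001. Their means overlapped, at -0.13 to 0.31 in transgenic livers and -0.47 to 0.25 in wild-type livers. The lowest of these means came from the library in doubt. Ratios to a pool give no absolute level, so no marker can be placed at 0.

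The genes whose ratios over the 7 arrays were most like those of a member were sought among 16458 other named genes by Pearson's r, as a description of 7 arrays that share 1 pool. For Scd1 these were Nme4 (r = 0.985), Apip (0.976), Ptges3l (0.975), Hectd2 (0.974) and Arnt2 (0.968), and 63 genes exceeded 0.9. For Elovl6 they were Snrnp25 (0.986), Il34 (0.978), Kcnd3 (0.970), Pola1 (0.967) and Il1f6 (0.960), with 60 genes above 0.9. For Fads2 they were Grm5 (0.983), Usf2 (0.971), Il23a (0.953), Olfr186 (0.949) and Stx2 (0.946), with 28 above 0.9. As the highest of 16458 values on 7 arrays, these correlations are high by selection. Spearman's rho was lower in some, as in Kcnd3 with Elovl6 (0.68). Genotype differences of the genes named here ran from 0.05 (Arnt2) to 0.67 (Pola1), and limma's adjusted p was 0.475 or more.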

How the data were processed

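Each of 7 livers was hybridised against a common pool on arrays of 2 colours. The table the authors deposited holds 1 log10 ratio per probe and animal (23574 probes); per the labels Cy3 and Cy5 were the dyes, with the pool listed first, and dyes were swapped. The log base was read from values limited at 2 and -2. The sources used here do not give how swaps were combined, the background correction, normalization or centring, and signal over background is unknown. Column medians ran from -0.0042 to 0.0093 (log10). Ratios were multiplied by 3.32 to log2. Probes with 1 symbol in GEO's platform annotation (17824) were averaged per gene, and the others (5700 without a symbol, 50 with several) kept alone. limma 3.58.1 (R 4.3.3), lmFit and eBayes, fitted genotype and sex over all 7 arrays, and the interaction in a model of its own, whose spread came from the males. The fit was tested on simulated data. Intervals are 95% from limma's moderated spread. Alternatives were median centring, quantile normalization, single probes, a robust variance model, named genes alone, models without the other term, males alone, wild-type animals alone and leaving out each animal, and, added after the data were seen, a replicate block for sex. Named were all members, Zfp90 and up to 3 genes per list with the smallest p; Fasn, Scd4, Srebf1 and Kdm5d were added after their values were seen. The members and lists were chosen with earlier results of these data known. Sequences are RefSeq's; overlapping windows of opposite strands (1243) were checked to be reverse complements.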

Additional observations from a re-analysis of the deposited data

Results flagged for a closer look

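Among the 4 wild-type animals 2 members had 1 sample far from the others, both times the array labelled wild-type female. This array is the only one of the 4 labelled female, so a sex difference and an outlying sample cannot be told apart here. It read below all wild-type males in 26.2% of all features. How many of all features have so large a gap was not counted. For Scd1 the gap from this array (-0.91) to the next animal was 0.944 of the whole range, and for Elovl1 (-0.15) it was 0.922, above Dixon's 95% critical value for 4 samples, which chance passes in about 1 group in 20.

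In 2 members both transgenic males lay below all wild-type males while the transgenic female lay above the wild-type female. Over all features the transgenic males lay below all wild-type males in 11.4%, and males and females had opposite signs in 50%. The females differed by 0.589 in Fads3 and by 0.198 in Elovl1, against -0.16 and -0.15 in the males. The interaction of genotype and sex, tested with limma over all features, had an adjusted p of 0.391 for Fads3 and 0.666 for Elovl1.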

How the results depend on the processing

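Scd1, Elovl6, Fads1, Fads2, Elovl5, Scd2 and Elovl2 kept the sign of their genotype difference in all 14 alternatives. Single probes, the robust variance model and named genes alone could not change a sign, as each member had 1 probe. The 5 males alone and leaving out either female gave the same fit. limma's adjusted p for Scd1 ran from 0.026 to 0.769 over the 14 alternatives, and for Elovl6 from 0.181 to 0.9997. Features called for genotype rose from 0 to 7 in the 5 males alone, with Scd1 the 1 member, and ran from 0 to 7 when single animals were left out. The members' median of 0.12 became -0.045 in the males alone and ran from -0.045 to 0.26 without single animals. In the males alone Fads3 was -0.16. Without single animals the genotype difference ran from -0.16 to 0.15 in Fads3, from -0.15 to 0.012 in Elovl1 and from -1.14 to 0.24 in Elovl3. Features called for sex numbered 78, 49 after quantile normalization, 121 in the wild-type animals alone, and 36 to 254 without single animals (36 without the wild-type female, 254 without the transgenic female). For the interaction they numbered 16, 6 after quantile normalization, 7 with named genes alone, and 4 (without wild-type male 2) to 77 (without wild-type male 4). Quantile normalization turned the interaction to -0.21 in Scd1 and 0.32 in Elovl2. The sex difference turned to 0.057 in Elovl6 without the genotype term, and in the wild-type animals alone to -0.16 in Fads1, -0.21 in Fads2, -0.30 in Fads3 and 0.029 in Elovl6. Without single animals it ran from -0.16 to 0.47 in Fads1, -0.21 to 0.41 in Fads2, -0.30 to 0.45 in Fads3, -0.25 to 0.095 in Elovl1, -0.069 to 0.065 in Elovl6 and -0.72 to 0.064 in Elovl5. The interaction ran from -0.25 to 0.090 in Elovl6 and from -0.54 to 0.20 in Elovl2, and could not be fitted without either female. The causes were not tested. The sexes share 1 replicate number within each genotype, and nothing in the labels says that it marks a shared source. With genotype and number as a replicate block, chosen after seeing the data and with 1 residual degree of freedom, 167 features and 0 members were called for sex, and Elovl2 turned to 0.24. The genotypes share 1 number within a sex, so no such block was fitted for them. Sex differences rest on 2 females, 1 per genotype, and on 1 female in the wild-type animals alone or without either female.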
